A study of Mus musculus with 6 samples.

Results

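Mitochondrial DNA (mtDNA) is copied, transcribed and read out by proteins that the nucleus encodes, and 36 genes of these proteins are described here in macrophages with and without knockdown of PGAM5. The genes were taken by symbol, among the 54532 gene rows of the deposited tables, as a fixed list that spans mtDNA replication (6 genes), transcription (7), RNA processing and modification (8), RNA stability and translation (11) and RNA decay (4). All 36 passed the filter of a mean FPKM (fragments normalized to exon length and library depth) of at least 1, which 10540 genes passed in all. The cells were iBMDMs, a mouse bone marrow-derived macrophage line that had been immortalized with retroviral v-raf and v-myc. They carried a lentiviral control shRNA (shControl, written control) or an shRNA against PGAM5 (shPGAM5, written PGAM5 KD), and every library came from cells given LPS at 100 ng/ml for 4 hours. There were 3 libraries in each group, with no library of untreated cells, so each value is a difference between LPS-treated cells. The labels name 1 shRNA per group and do not say whether replicates were separate cultures, so the p-values measure the spread between these libraries, which may be technical, and an effect of PGAM5 and of this shRNA or its cell population cannot be told apart.

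Mammalian mtDNA is a small circle that is packed by Tfam and replicated by polymerase gamma (Polg and Polg2) with the helicase Twinkle. The RNA polymerase Polrmt transcribes both strands into long precursors, from which tRNAs are cut out to release the mRNAs and rRNAs. The mRNAs are then polyadenylated, held stable by RNA-binding proteins such as Lrpprc, translated on mitochondrial ribosomes, and removed by a helicase and exonuclease pair, Supv3l1 and Pnpt1. In macrophages, newly made mtDNA and mitochondrial double-stranded RNA are also known as triggers of innate immune sensors.

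Depth was 18165599 to 20178812 fragments in the control and 18163464 to 24388917 fragments in the PGAM5 KD libraries. The targeted gene, Pgam5, was lower in PGAM5 KD in 3 of 3 libraries, by 1.40 ± 0.13 (SE) on the log2 scale (limma, adjusted p = 0.000358). Of 10 macrophage markers, 9 were present, with summed levels of 3198 to 3270 FPKM in control and 2893 to 2937 FPKM in PGAM5 KD libraries, and Mertk was at 0. Within that sum, which Lyz2 leads, Csf1r, Cd68 and Lyz2 were lower and Adgre1, Itgam, Fcgr1 and Cd14 higher, with fold changes from -0.64 (Csf1r) to 1.51 (Fcgr1), and the part of this in the results was not tested. No marker of neutrophils (8 searched), fibroblasts (7) or lymphocytes (8) reached a mean of 1 FPKM, and the highest sums in any library were 0.568, 0.258 and 0.211 FPKM. Of the 36 genes, 19 shared exon bases with another annotated gene, 6 of them over more than 10% of their exon length. The strand setting of the authors' counting is not known, so the level of these 6 (Slirp, Fastkd5, Mterf4, Fastk, Mtpap and Twnk) is uncertain. So is that of genes whose smaller overlap lies on a more abundant gene, such as Mgme1 on Snx5 and Ptcd1 on Bud31. In bulk RNA of this kind, fewer cells of a type and less RNA per cell cannot be told apart.

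PGAM5 KD cells showed small changes in both directions among the 36 genes. In limma's test on log2(FPKM + 1), with Benjamini-Hochberg adjustment over all 10540 genes, 4 genes were higher (Tefm, Ptcd1, Pnpt1 and Rexo2) and 7 were lower (Polrmt, Elac2, Lrpprc, Fastkd2, Tbrg4, Grsf1 and Supv3l1). The other 25 did not pass. The 11 called genes are 30.6% of the 36, and across all genes tested the share was 31.7%. By direction, 11.1% of the 36 were higher against 16.8% of all genes, and 19.4% were lower against 14.9%. After scaling to TPM, in which each library has the same total, 1 of the 36 was higher (Pnpt1; the calls of Tefm, Ptcd1 and Rexo2 were lost) and 13 were lower, and over all genes the shares turned to 10.3% higher and 21.7% lower.

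The changes were all below 1 on the log2 scale. They ran from -0.31 for Lrpprc to 0.34 for Slirp, which did not pass and was 0.15 without control replicate 3 and 0.18 without PGAM5 KD replicate 2, whereas 139 of all genes (1.32%) passed with an absolute log2 fold change above 1. The median over the 36 genes was -0.09, and over all genes tested it was 0.01, with quartiles of -0.14 and 0.16. The fold change was negative for 23 of the 36 and positive for 13. Median deviations of the 36 genes from the control mean were -0.06, -0.08 and -0.10 in the 3 PGAM5 KD libraries and between -0.01 and 0.02 in the control libraries. Control and PGAM5 KD values did not overlap for 18 of the 36 genes, 6 higher (16.7%) and 12 lower (33.3%), beside 47.1% of all genes (24.2% higher, 22.9% lower). A single gene of this kind reached an exact permutation p of 0.1, which is the smallest that 3 against 3 libraries allow.

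**Figure D1:**
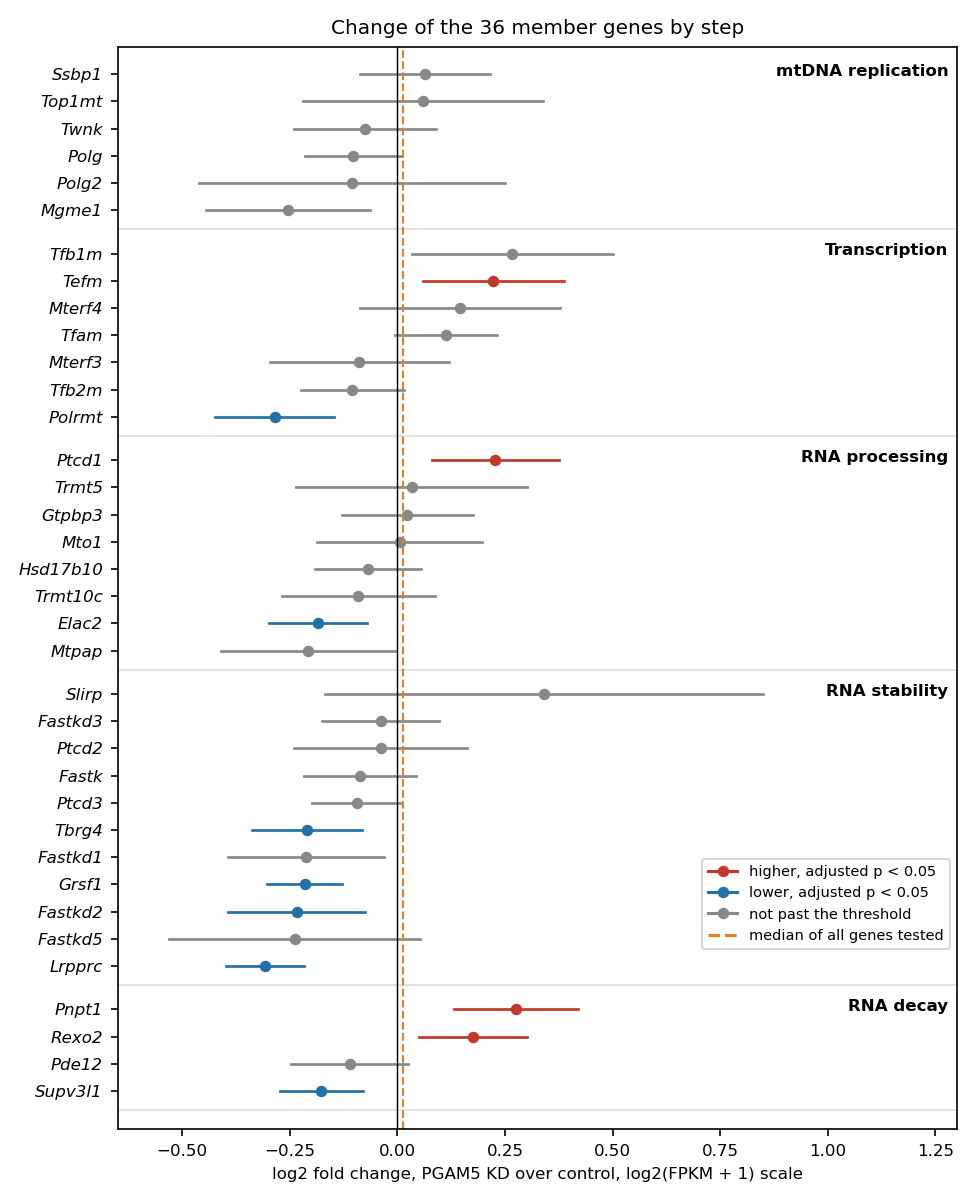
Log2 fold change (PGAM5 KD over control, on the log2(FPKM + 1) scale) of each of the 36 genes, grouped by step, with points for the limma estimate and lines for its 95% confidence interval. The 4 genes called higher and 7 called lower are coloured, and most RNA stability genes lie left of the dashed median of all genes, with Slirp the exception at 0.34.

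By step, RNA stability had the lowest median, -0.21 (all genes tested, 0.01). There, 10 of 11 genes had a negative fold change (47.5% of all genes), and 4 (36.4%, against 14.9% of all genes) were called lower and none higher. On leaving out 1 library, 2 or 3 stability genes were called lower, beside 10.7% to 12.9% of all genes. With the replicate block or without a filter, 2 were (11.5% and 6.09% of all genes). Replication had no called gene and a median of -0.09. Transcription and processing each had 1 gene higher and 1 lower, with medians of 0.11 and -0.03, and the all-gene shares were 16.8% higher and 14.9% lower. In decay, 2 of 4 were higher and 1 lower, beside the same shares, and all 4 genes had values that did not overlap (47.1% of all genes). With TPM, 10.3% of all genes were higher and 21.7% lower. Replication then had 2 genes lower (Polg and Mgme1). Transcription and processing each had 2 lower and none higher (Tefm and Ptcd1 lost, Tfb2m and Mtpap gained). Stability had 6 lower, and decay 1 higher and 1 lower. No test was run between steps, since the genes were chosen with results of these data known.

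The promoters were searched for motifs, which were not used to choose the genes. Windows from 250 bases before to 50 bases after the RefSeq transcription start (GRCm38.p6) were available for 33 of the 36 genes, and Top1mt, Mterf3 and Mtpap had none. Both strands were scanned for CCGGAAG, which reads CTTCCGG on the opposite strand, the core bound by ETS factors such as NRF-2 (encoded by Gabpa and Gabpb1), a known activator of genes for mitochondrial proteins. This ETS core was found for 17 of 33 genes (51.5%), compared with 23.5% of 7679 tested genes and 9.93% of 27025 genes with a window. The 33 genes had 35 windows, and a gene counted once if any of its windows held a match. It was in 4 of the 11 called genes (Grsf1, Polrmt, Tbrg4 and Tefm) and in 13 of the 22 uncalled genes with a window. Of 22 matches, 19 lay wholly within the last 120 bases before the start.

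The last 120 bases before the start are printed for 7 genes, 5′ to 3′ on the strand of the gene, with the ETS core in capitals. They were chosen after their values were seen. Polrmt was lower and Tefm higher, each with 1 core near the start. Tbrg4, called lower, has 2, and Tfam and Polg hold 1 each and did not pass. Lrpprc and Pnpt1, called lower and higher, hold none here.
Polrmt (chr10:79746582-79746701, minus strand): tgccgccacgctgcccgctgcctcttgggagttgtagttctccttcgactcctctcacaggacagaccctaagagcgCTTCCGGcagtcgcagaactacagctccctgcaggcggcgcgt
Tefm (chr11:80142154-80142273, minus strand): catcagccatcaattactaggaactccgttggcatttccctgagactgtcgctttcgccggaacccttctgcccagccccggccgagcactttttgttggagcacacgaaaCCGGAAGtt
Tbrg4 (chr11:6626068-6626187, minus strand): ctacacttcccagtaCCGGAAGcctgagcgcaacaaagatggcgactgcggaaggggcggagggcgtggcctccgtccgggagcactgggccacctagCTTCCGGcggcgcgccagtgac
Tfam (chr10:71238045-71238164, minus strand): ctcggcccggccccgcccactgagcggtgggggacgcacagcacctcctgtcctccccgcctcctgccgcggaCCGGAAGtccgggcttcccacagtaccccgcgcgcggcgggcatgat
Polg (chr7:79466274-79466393, minus strand): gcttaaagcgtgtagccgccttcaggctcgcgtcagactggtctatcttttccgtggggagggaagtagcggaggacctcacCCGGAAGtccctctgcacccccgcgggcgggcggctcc
Lrpprc (chr17:84790787-84790906, minus strand): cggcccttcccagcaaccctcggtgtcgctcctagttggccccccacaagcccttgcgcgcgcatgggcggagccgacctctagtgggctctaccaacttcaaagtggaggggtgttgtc
Pnpt1 (chr11:29130624-29130743, plus strand): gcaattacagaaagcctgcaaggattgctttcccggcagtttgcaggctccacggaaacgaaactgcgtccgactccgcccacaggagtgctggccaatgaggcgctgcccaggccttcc

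The same core thus stood before genes called higher, lower and neither. The consensus of NRF1 has 10 bases, rich in G and C, with 1 base left free. It was found for 4 genes (12.1%), Polrmt, Ptcd1, Rexo2 and Fastkd3, compared with 13.4% of tested genes. NRF1 is a transcription factor named for its action on respiratory genes. The YY1 motif AAGATGGC, searched on both strands, was found for 7 genes (21.2%), among them Tbrg4, compared with 6.28% of tested genes. The interferon-stimulated response element (ISRE), as a pattern of 10 bases, was found for 2 genes (6.06%), Fastkd1 and Hsd17b10, compared with 3.82% of tested genes. The NRF1 matches in Polrmt overlap each other, and no other motif overlapped. A match is a match of letters, not a bound site.

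**Figure D2:**
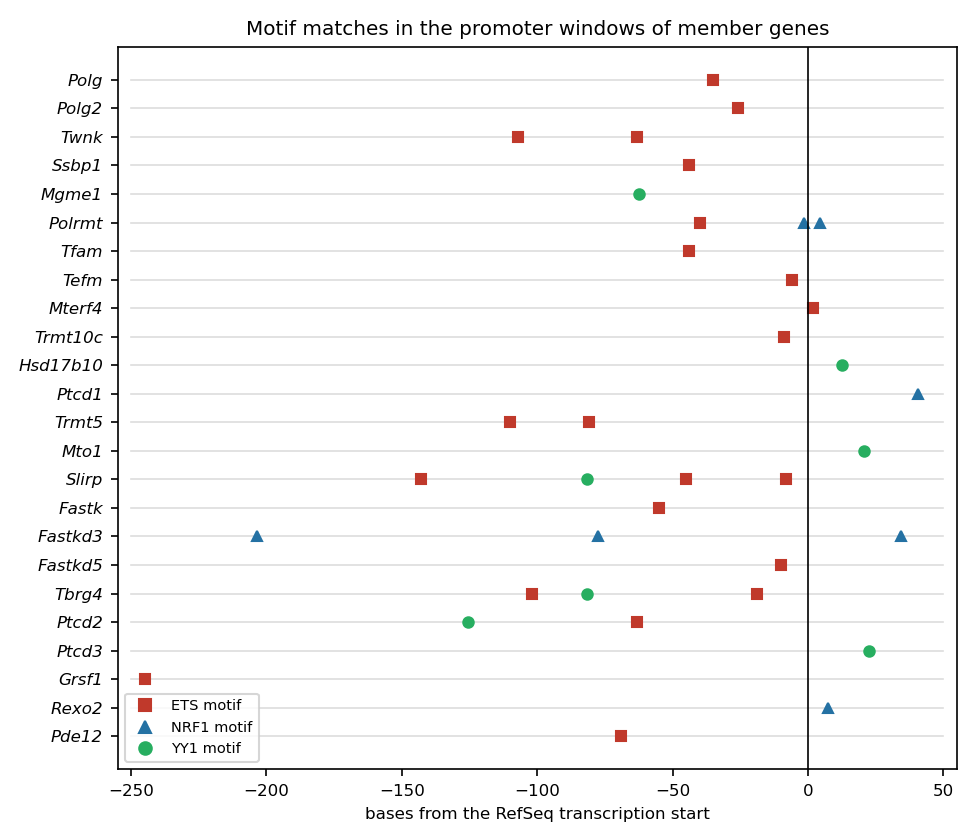
Position of each ETS, NRF1 and YY1 match in the promoter windows of the genes with at least 1 match, in bases from the RefSeq transcription start (vertical line at 0). Red squares, the ETS core, gather in the stretch before the start, where 19 of 22 matches lie, and the interferon-response pattern is not drawn.

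None of the 6 replication genes passed the test. Polg, the catalytic subunit of polymerase gamma, had 8.61, 8.75 and 8.41 FPKM in control and 8.17, 7.84 and 7.78 FPKM in PGAM5 KD libraries, a fold change of -0.10 (95% interval -0.21 to 0.01, limma adjusted p = 0.146). Its groups did not overlap. Polg2, the accessory subunit, was expressed at 1.42, 1.81 and 1.13 FPKM in control and 0.992, 1.55 and 1.28 FPKM in PGAM5 KD cells. Those ranges overlapped, and the interval of the change, -0.46 to 0.25, is wide at this level. Its exons overlap those of Milr1 on the opposite strand (3.03% of their length), which was at 15.7 FPKM in control and 26.8 FPKM in PGAM5 KD cells.

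Mgme1, an exonuclease that trims DNA ends during replication, came closest to the threshold among these genes. It had 8.58, 8.10 and 8.55 FPKM in control and 6.07, 6.99 and 7.68 FPKM in PGAM5 KD libraries, with every PGAM5 KD value under every control value. The fold change was -0.25 ± 0.08 (SE), with an adjusted p of 0.0503 in limma, and 7 of 18 alternative fits called it lower, among them the fit without PGAM5 KD replicate 3 (0.0305). Part of its exons (6.15%) lies over Snx5 on the opposite strand. Snx5 was at 102.0 FPKM in control and 117.3 FPKM in PGAM5 KD cells, so Mgme1 held only 4.01% to 6.31% of the fragments of the pair. The helicase Twnk (Twinkle) was at 14.1 ± 0.232 FPKM (SD, n = 3) in control and 13.4 ± 1.33 FPKM in PGAM5 KD cells. The single-stranded DNA-binding protein Ssbp1 had 7.12 ± 0.418 and 7.49 ± 0.412 FPKM. Levels of Top1mt, the mitochondrial topoisomerase that relieves supercoils, were 11.6 ± 1.55 and 12.2 ± 1.72 FPKM. All 3 overlapped between the groups.

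Among transcription genes, the polymerase was lower and its elongation factor higher. Polrmt (ENSMUSG00000020329, chromosome 10, 79736123 to 79746581, minus strand), which transcribes mtDNA and makes the primers for its replication, had 9.49, 9.95 and 9.84 FPKM in control and 7.25, 8.09 and 8.19 FPKM in PGAM5 KD libraries. Every PGAM5 KD library was below every control library. The mean FPKM decreased by 19.7%, and the fold change on the log2(FPKM + 1) scale was -0.28 ± 0.06 (SE), with an adjusted p of 0.0111 in limma. Tefm, the elongation factor that keeps Polrmt on its template, was at 8.45, 9.44 and 9.66 FPKM in control and 10.1, 11.4 and 11.2 FPKM in PGAM5 KD cells. It was higher in 3 of 3 libraries, by 0.22 ± 0.07 (SE) on the log2 scale (limma adjusted p = 0.0474). The call of Tefm stood in 8 of 18 alternative fits, only 1 of them a fit without 1 library, and that of Polrmt in all 18. Both have an ETS core close to the start in the sequences printed above.

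The 2 initiation factors did not pass. Tfam, which packs mtDNA and bends its promoters, had 13.02, 13.4 and 12.4 FPKM in control and 13.5, 14.6 and 14.1 FPKM in PGAM5 KD libraries. These did not overlap, with a fold change of 0.11 and an interval of -0.00 to 0.23 (limma adjusted p = 0.129). Tfb2m, which opens the promoter with Polrmt, had 20.8, 20.5 and 21.2 FPKM in control and 18.7, 18.5 and 20.7 FPKM in PGAM5 KD cells, and here the ranges overlapped. The value of Tfb2m is uncertain, because its transcripts are 99.3% identical over 1187 bases to the pseudogene Gm1818 and resemble stretches of Ifi203 and 1500011B03Rik. Ifi203, a member of an interferon-inducible family, was at 0.878 FPKM in control and 5.50 FPKM in PGAM5 KD cells. Of the fragments of these 4 genes, Tfb2m held 66.8% to 72.3% in control and 47.8% to 49.0% in PGAM5 KD libraries. How the authors' counting split reads among them was not tested.

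Tfb1m is the sister gene of Tfb2m and encodes a methyltransferase of the small ribosomal RNA. It had 3.02, 2.69 and 2.23 FPKM in control and 3.57, 3.26 and 3.28 FPKM in PGAM5 KD libraries. The groups did not overlap, but the change of 0.27 ± 0.10 (SE) did not pass (limma adjusted p = 0.081). Mterf3, a repressor of mtDNA transcription that also acts in ribosome assembly, was at 5.68 ± 0.440 FPKM (SD, n = 3) and 5.30 ± 0.609 FPKM. Mterf4, which brings a ribosomal RNA methyltransferase to the ribosome, was at 1.73 ± 0.212 and 2.01 ± 0.108 FPKM. Both overlapped between groups, with limma adjusted p-values of 0.487 and 0.299.

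In RNA processing, 1 gene was lower and 1 higher. Elac2, the RNase Z that trims tRNA ends, had 34.5, 31.5 and 34.4 FPKM in control and 28.3, 29.7 and 29.9 FPKM in PGAM5 KD libraries. All PGAM5 KD values were lower, by 0.18 ± 0.05 (SE) on the log2 scale (limma adjusted p = 0.0269). The mitochondrial RNase P, which cuts the other end of tRNAs, is represented by its methyltransferase and scaffold subunits, and neither passed. Trmt10c, the methyltransferase, was at 18.6, 20.2 and 21.3 FPKM in control and 19.8, 19.6 and 16.9 FPKM in PGAM5 KD cells. Hsd17b10, a dehydrogenase that serves as the scaffold, was at 43.5, 44.9 and 43.6 FPKM and 45.3, 40.2 and 40.4 FPKM. Both overlapped, with fold changes of -0.09 (interval -0.27 to 0.09) and -0.07 (-0.19 to 0.06). Leaving out libraries gave -0.14 to -0.02 for Trmt10c, nearest to 0 without PGAM5 KD replicate 3, and -0.12 to -0.04 for Hsd17b10, at these ends without PGAM5 KD replicate 1 and 2.

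Ptcd1, a pentatricopeptide repeat protein that binds mitochondrial leucine tRNAs and ribosomal RNA, was higher. Its values were 5.97, 5.51 and 5.47 FPKM in control and 6.90, 6.38 and 7.08 FPKM in PGAM5 KD libraries, with no overlap and a mean FPKM higher by 20.1% (0.23 ± 0.06 SE on the log2(FPKM + 1) scale, limma adjusted p = 0.0316). Its exons overlap Bud31 on the opposite strand over 7.46% of their length. Bud31 was at 43.9 FPKM in control and 54.8 FPKM in PGAM5 KD cells, and the part of shared reads in the Ptcd1 change was not tested. Mtpap, the poly(A) polymerase of mitochondria, had 15.8, 17.7 and 16.1 FPKM in control and 12.7, 14.0 and 16.0 FPKM in PGAM5 KD libraries. PGAM5 KD replicate 3 lay inside the control range, and the change of -0.21 (interval -0.41 to -0.01) did not pass (limma adjusted p = 0.109). Without PGAM5 KD replicate 3 it passed, at -0.29 (limma adjusted p = 0.0394), and without PGAM5 KD replicate 1 it was -0.13.

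The tRNA-modifying genes gave overlapping values. Mto1 and Gtpbp3, which together modify the wobble base of several tRNAs, were at 8.87, 8.93 and 8.57 FPKM and at 10.5, 10.0 and 9.19 FPKM in control libraries. In PGAM5 KD libraries they were at 7.74, 9.03 and 9.80 FPKM and at 10.7, 9.59 and 9.97 FPKM. Their fold changes were 0.01 (interval -0.19 to 0.20) and 0.02 (-0.13 to 0.18). Trmt5, a tRNA methyltransferase, was at 13.8 ± 1.85 FPKM (SD, n = 3) in control and 14.1 ± 1.74 FPKM in PGAM5 KD cells.

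RNA stability held the largest called change. Lrpprc (ENSMUSG00000024120, chromosome 17, 84705247 to 84790789, minus strand), the RNA-binding protein that stabilizes most mitochondrial mRNAs and promotes their polyadenylation, had 29.6, 28.6 and 29.8 FPKM in control libraries. In PGAM5 KD libraries it had 22.9, 24.1 and 23.4 FPKM, so the groups were clearly apart. The fold change on the log2(FPKM + 1) scale was -0.31 ± 0.04 (SE, limma adjusted p = 0.00142), and the mean FPKM changed by -19.9%, resting on 3727 to 4944 fragments per library. Slirp, the small partner that binds Lrpprc, could not be read as firmly. It was counted at 1.45, 1.12 and 0.545 FPKM in control and 1.23, 2.16 and 1.31 FPKM in PGAM5 KD libraries, on 33 to 122 fragments. Its exons lie over Snw1 on the opposite strand for 93.9% of their length, Slirp held 1.42% to 4.69% of the fragments of the overlapping genes, and its interval ran from -0.17 to 0.85.

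Grsf1 and members of the FASTK family were lower. Grsf1 (ENSMUSG00000044221, chromosome 5, 88659448 to 88676171, minus strand) encodes a protein of mitochondrial RNA granules. It had 58.2, 60.7 and 62.1 FPKM in control and 53.0, 51.1 and 51.3 FPKM in PGAM5 KD cells, with a fold change of -0.22 ± 0.04 (SE) and a limma adjusted p of 0.00547. Tbrg4, also known as a FASTK protein that stabilizes several mRNAs, had 55.6, 55.5 and 51.7 FPKM in control and 44.9, 45.5 and 50.2 FPKM in PGAM5 KD libraries. Its groups did not overlap, although PGAM5 KD replicate 3 came near the lowest control (log2 fold change -0.21 ± 0.05 SE, limma adjusted p = 0.0254). Fastkd2, needed for the large ribosomal RNA, was at 11.4, 11.8 and 12.5 FPKM and 9.58, 11.0 and 9.40 FPKM, without overlap. That change was -0.23 ± 0.07 (SE), with a limma adjusted p of 0.0376.

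The remaining FASTK and pentatricopeptide genes did not pass. Fastkd1, which acts on the level of the mt-Nd3 mRNA, was at 6.09 ± 0.196 FPKM (SD, n = 3) in control and 5.14 ± 0.534 FPKM in PGAM5 KD cells, with no overlap. Fastkd5, which helps cut precursors at sites without tRNAs, was at 4.76 ± 0.710 and 3.88 ± 0.581 FPKM, and shares 65.2% of its exon length with Ubox5 on the same strand. Fastk, which acts on the mt-Nd6 mRNA, was at 13.6 ± 0.486 and 12.8 ± 0.738 FPKM. Its exons overlap Slc4a2 for 26.1% of their length. Fastkd3, a less understood member of the family, was at 7.82 ± 0.157 and 7.59 ± 0.482 FPKM. Ptcd3, a protein of the small ribosomal subunit, had 19.4 ± 0.749 and 18.1 ± 0.391 FPKM without overlap, and Ptcd2, which acts on the cytochrome b transcript, had 30.2 ± 0.936 and 29.5 ± 3.67 FPKM. Limma adjusted p-values of these 6 genes ran from 0.0765 for Fastkd1 to 0.757 for Ptcd2.

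In RNA decay, the nuclease was higher while its helicase was lower. Pnpt1 (ENSMUSG00000020464, chromosome 11, 29130744 to 29161828, plus strand), the polynucleotide phosphorylase that degrades mitochondrial RNA and is known to keep mitochondrial double-stranded RNA low, had 27.6, 31.8 and 29.9 FPKM in control libraries. It had 37.6, 36.9 and 34.2 FPKM in PGAM5 KD libraries, all above the highest control. The mean FPKM rose by 21.7% (0.28 ± 0.06 SE on the log2(FPKM + 1) scale, limma adjusted p = 0.0147). Supv3l1, the helicase that unwinds RNA for Pnpt1, was at 19.7, 19.1 and 18.9 FPKM in control and 17.3, 16.5 and 16.8 FPKM in PGAM5 KD cells. It was lower in 3 of 3 libraries, by 0.18 ± 0.04 (SE) on the log2 scale (limma adjusted p = 0.0169).

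Rexo2, which degrades the short RNAs that Pnpt1 leaves, had 37.2, 37.3 and 34.0 FPKM in control and 41.5, 38.9 and 42.6 FPKM in PGAM5 KD libraries. It was higher by 0.18 ± 0.05 (SE) on the log2 scale, without overlap (limma adjusted p = 0.0422). Pde12, which removes poly(A) tails in mitochondria, was at 8.94, 8.58 and 8.67 FPKM and at 8.30, 8.32 and 7.44 FPKM. All of its PGAM5 KD values were lower, but the change of -0.11 did not pass (limma adjusted p = 0.188) and was -0.06 without PGAM5 KD replicate 3. Pde12 exons overlap Arf4 on the opposite strand for 6.82% of their length. Arf4 was at 31.9 FPKM in control and 38.2 FPKM in PGAM5 KD cells. Of the fragments of these overlapping genes, Pde12 held 36.2% to 38.4% in control and 29.7% to 32.0% in PGAM5 KD libraries. The part of shared reads in the Pde12 change was not tested.

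**Figure D3:**
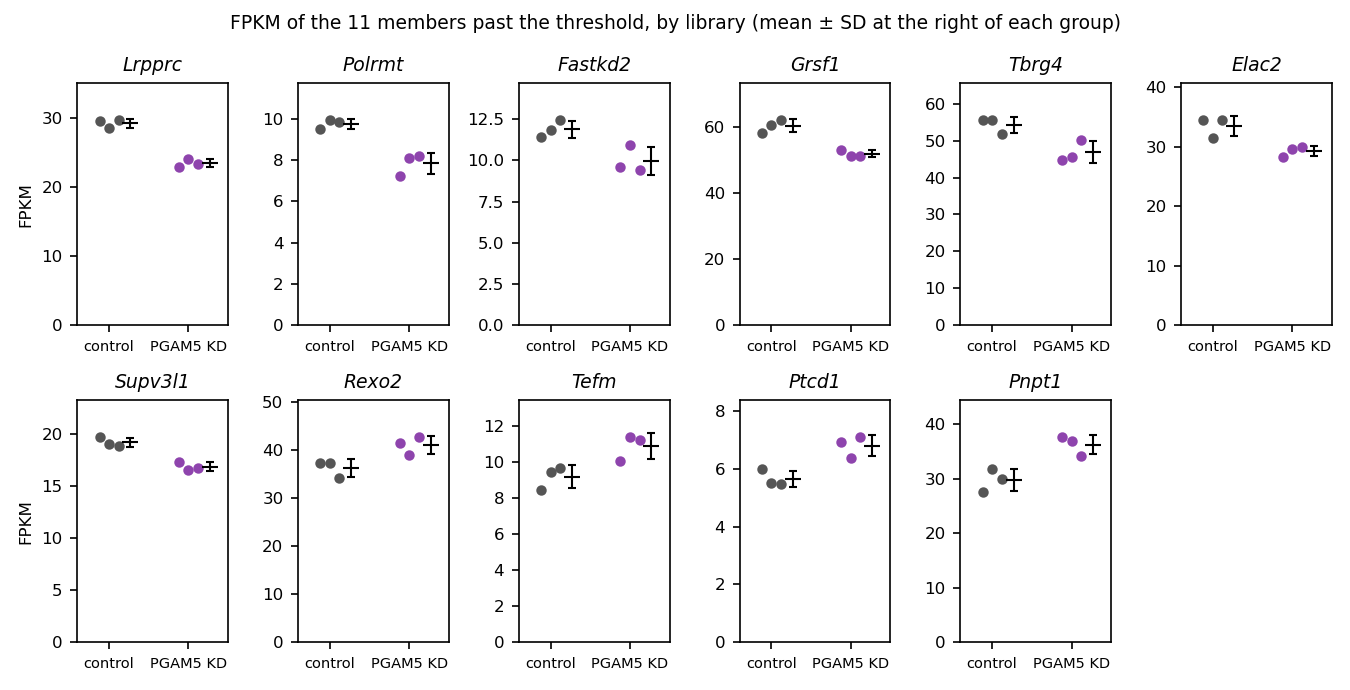
FPKM of the 11 called genes in each of the 6 libraries (dots, control grey and PGAM5 KD purple), with the mean and SD of each group as a bar at its right and each axis starting at 0. The groups do not overlap in any panel, and the mean FPKM of each gene differs by 21.7% of its control mean (Pnpt1) or less.

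Ratios between paired genes within a library are free of library scaling. They were compared by an exact two-sided permutation test for 6 pairs, which are 5 pairs of partners and the sister genes Tfb1m and Tfb2m. The Pnpt1 to Supv3l1 ratio was 1.40, 1.66 and 1.59 in control and 2.17, 2.23 and 2.04 in PGAM5 KD libraries. Its groups were apart, with a log2 difference of 0.47 (pooled SD 0.10, exact permutation p = 0.1, adjusted p = 0.2 over the 6 pairs). As these genes were called in opposite directions, the ratio restates those calls on a scale that depth does not touch.

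The Tfb1m to Tfb2m ratio was 0.146, 0.131 and 0.105 in control and 0.191, 0.176 and 0.159 in PGAM5 KD libraries, a log2 difference of 0.47 (pooled SD 0.19). Values of Lrpprc over Slirp were 20.3, 25.6 and 54.7 in control and 18.6, 11.2 and 17.9 in PGAM5 KD libraries, a log2 difference of -0.98 (pooled SD 0.60), which was -0.56 without control replicate 3. Neither ratio overlapped between groups, and both had the same exact permutation p of 0.1 and adjusted p of 0.2, with the uncertainties of Tfb2m and Slirp given above. Log2 differences for Polg over Polg2 (0.07, pooled SD 0.33), Trmt10c over Hsd17b10 (-0.03, pooled SD 0.10) and Mto1 over Gtpbp3 (-0.02, pooled SD 0.18) were within the spread of the replicates. Each of the 3 turned sign on leaving out 1 library, with ranges of -0.12 to 0.23, -0.09 to 0.03 and -0.10 to 0.12. Their exact permutation p-values with all libraries were 0.8, 0.7 and 1.0.

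**Figure D4:**
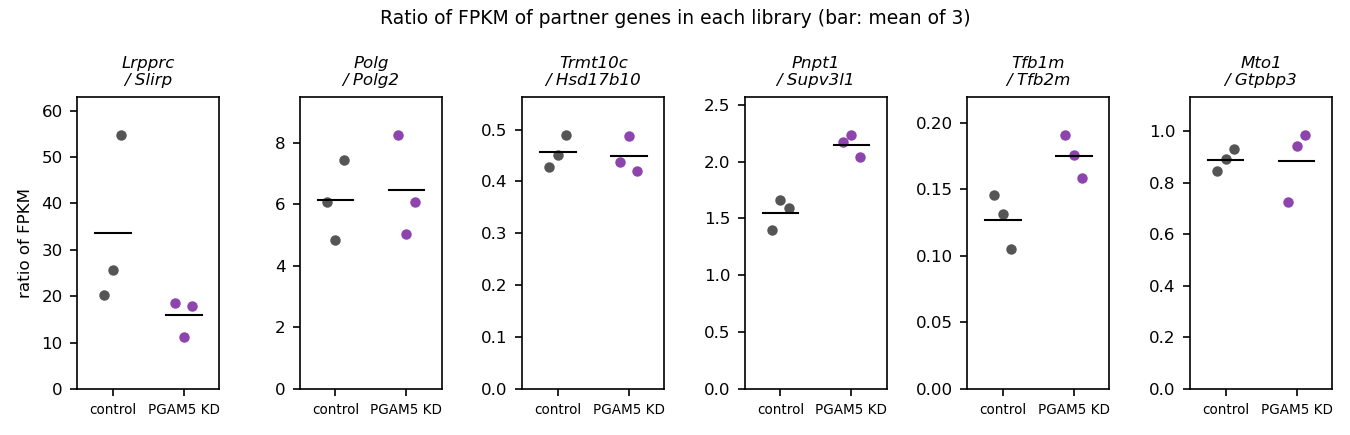
Ratio of FPKM between 2 genes, for 5 pairs whose proteins act together and the sister genes Tfb1m and Tfb2m, with 1 dot per library in control and PGAM5 KD cells. The Pnpt1 to Supv3l1 ratio lies at 1.40 to 1.66 in control and 2.04 to 2.23 in PGAM5 KD libraries, and the ratios of Polg over Polg2, Trmt10c over Hsd17b10 and Mto1 over Gtpbp3 overlap.

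Of the 11 calls, 4 stood in every setting tried. Lrpprc, Grsf1, Polrmt and Pnpt1 passed in the same direction in each of 18 alternative fits, including the 6 that left out 1 library. Their largest limma adjusted p-values in these fits were 0.0113, 0.0249, 0.0402 and 0.0498, so Pnpt1 came close to the threshold. The other 7 lost their call in at least 1 leave-one-out fit. The limma adjusted p of Supv3l1 was 0.0564, 0.0583 and 0.0529 without control replicate 1, PGAM5 KD replicate 2 and PGAM5 KD replicate 3. Tbrg4 was lost without control replicate 1 or 2 or PGAM5 KD replicate 1 or 2 (adjusted p from 0.0655 to 0.0798). Ptcd1 was kept only without control replicate 1 or PGAM5 KD replicate 2, and elsewhere reached 0.0994. Elac2 was kept only without control replicate 2, Tefm only without PGAM5 KD replicate 1, and Fastkd2 and Rexo2 only without PGAM5 KD replicate 2. Their largest leave-one-out adjusted p-values were 0.0856, 0.135, 0.112 and 0.123. Over all 18 alternatives, the call stood in 15 for Supv3l1, 12 for Tbrg4, 11 for Elac2, 10 each for Ptcd1 and Fastkd2, 8 for Tefm and 7 for Rexo2. Every one of the 11 kept its direction in all of them.

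**Figure D5:**
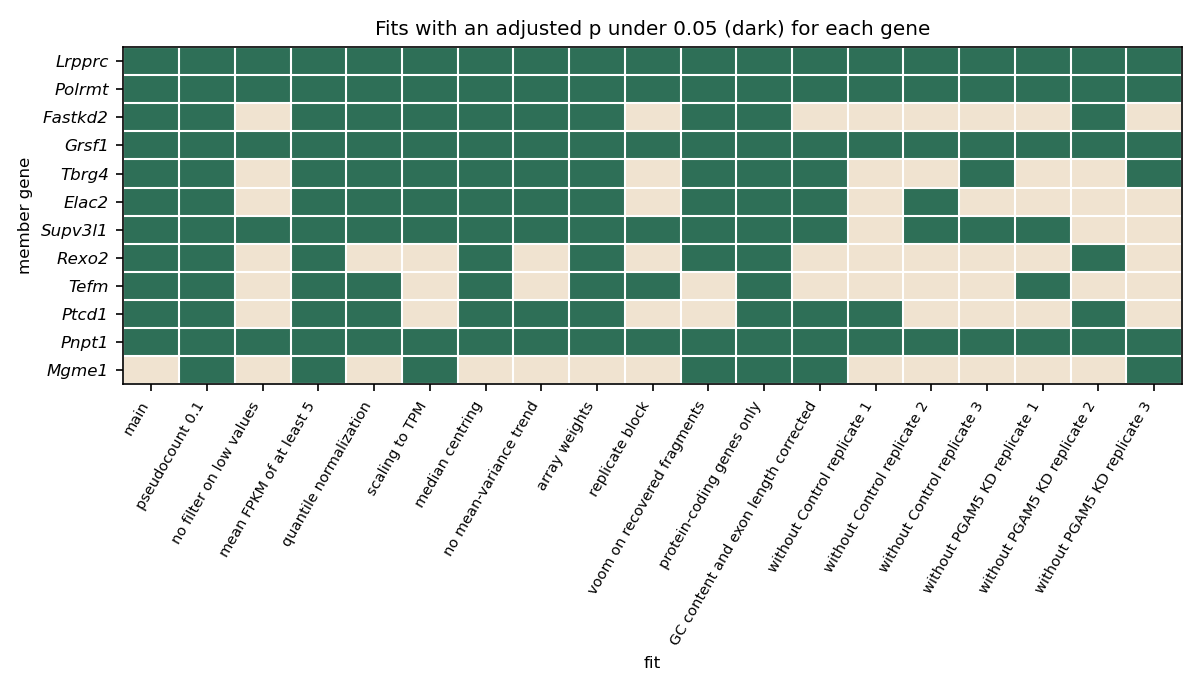
Fits (columns) in which each of the 11 called genes and Mgme1 (rows) had a limma adjusted p under 0.05, shown dark. The rows of Lrpprc, Polrmt, Grsf1 and Pnpt1 are dark throughout. The other called genes have light cells in fits without 1 library, and in others such as no filter or the replicate block.

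The wider set of nuclear genes for mitochondrial gene expression also held called genes in both directions. Of 68 further factors, 63 were tested, 12 were higher (19.0%, against 16.8% of all genes) and 4 lower (6.35% against 14.9%), and the median fold change was 0.02. With TPM the counts turned to 6 higher and 10 lower, beside 10.3% higher and 21.7% lower of all genes. Lower without TPM scaling were Rmnd1, which anchors mitochondrial ribosomes (-0.60, limma adjusted p = 0.00177), and Mpv17, an inner membrane protein needed for mtDNA upkeep (-0.46, 0.0153). So were Lig3, the mitochondrial DNA ligase (-0.24, 0.0221), and Atad3a, an inner membrane ATPase that contacts nucleoids (-0.23, 0.00481). The higher genes with the largest changes were the nuclease Endog (0.59, limma adjusted p = 0.0157), the nucleoside diphosphate kinase Nme4 (0.48, 0.0383), the ribosome-assembly helicase Ddx28 (0.45, 0.00347), and the rRNA methyltransferases Mettl15 (0.41, 0.0156) and Mrm2 (0.36, 0.0422).

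Of 15 regulators of mitochondrial biogenesis, 11 were tested, 1 of which was higher (9.09%, against 16.8% of all genes) and 4 lower (36.4% against 14.9%). Nfe2l2, the oxidative stress factor, was at 39.1, 40.6 and 39.6 FPKM in control and 27.3, 26.6 and 26.0 FPKM in PGAM5 KD libraries, well apart (log2 fold change -0.56, limma adjusted p = 9.44e-05). Also lower were the coactivator Pprc1 (-0.28), Sp1 (-0.26) and Myc (-0.25), a gene of which the line also carries a viral form. Only the nuclear receptor Esrra was called higher, from 13.9, 14.1 and 14.3 FPKM to 19.0, 20.8 and 20.9 FPKM (0.49, limma adjusted p = 0.000548). Nrf1 (0.02), Yy1 (-0.04), Gabpa (-0.06) and Gabpb1 (0.27) did not pass, with limma adjusted p-values of 0.867, 0.497, 0.328 and 0.081. They are factors of the NRF1, YY1 and ETS motifs, and no factor of the ISRE is given here.

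The mRNAs encoded by mtDNA are the transcripts on which these proteins act. Of 13, 12 were tested and 11 were lower (14.9% of all genes were), with a median of -0.71 and the largest fold changes in mt-Atp6 (-1.06), mt-Co3 (-0.90) and mt-Nd2 (-0.79). Library preparation selected RNA by its poly(A) tail, so a change in level and a change in the tails of these transcripts cannot be told apart.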

How the data were processed

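RNA-seq was performed on poly(A) RNA from 3 control and 3 PGAM5 KD libraries of LPS-treated iBMDMs. The authors deposited FPKM per Ensembl gene, 1 table per library, which are normalized to depth and exon length. The submitters' processing notes name HISAT2 2.0.5, featureCounts 1.5.0-p3 and the mm10 build, and the annotation and strand setting are not given in the sources used here, so overlapping genes are uncertain. Gene symbols and coordinates came from GENCODE M21 (GRCm38), which held 54495 of 54532 identifiers. The depth of each library was recovered from the step between low values times exon length, which gave whole fragments (tolerance 0.01) for 96.8% to 97.1% of those below 1000 fragments.

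Genes whose mean was 1 FPKM or more were tested on log2(FPKM + 1) with limma 3.58.1 in R 4.3.3 (lmFit, eBayes with trend, two-sided, Benjamini-Hochberg over 10540 genes). On simulated data, this recovered 97 of 98 genes changed 2-fold and 71 of 99 changed 1.35-fold, with 7.18% of calls false. That simulation used the same spread for all genes. Smaller changes, such as those of the called genes here, were not simulated. Fold changes on this scale understate those of low genes. A gene was called at an adjusted p under 0.05. Differential expression in the study's methods also asked for an absolute log2 fold change above 1. Ratios used an exact permutation test (scipy 1.17.1). Look-alike transcripts were sought with blastn 2.17.0 (at least 85% identity over 200 bases). The 36 genes and the lists were chosen with earlier results of these data known. Every gene of the list is named. Values by library were set for the largest changes of each step and for partner pairs, and called genes received them too, and the other lists name at most 5 genes per direction. The alternatives comprised pseudocount, filter, scaling, variance model, replicate block, voom on recovered fragments, GC and length correction, and leaving out each library.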

Additional observations from a re-analysis of the deposited data

How the results depend on the processing

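Leaving out each library in turn gave 1 to 3 of the 36 genes higher and 3 to 6 lower, with their median from -0.092 to -0.060. Of the other factors, 7 to 9 were higher and 2 to 5 lower. Over all genes, 11.5% to 14.2% were higher and 10.7% to 12.9% lower in these fits. Without a filter, 1 and 4 of the 36 were higher and lower, and 6 other factors higher. More genes entered that fit, in which 6.36% of all genes were higher and 6.09% lower. Scaling to TPM moved the median of all genes to -0.06 and gave 1 higher and 13 lower of the 36 (median -0.17), 6 other factors higher and 10 lower, and 1088 higher and 2282 lower of all genes. It added Polg, Mgme1, Tfb2m, Mtpap, Fastkd1 and Ptcd3 as lower and lost Tefm, Ptcd1 and Rexo2. The number of the 36 called higher was 2 without a variance trend, with voom, and with GC and length correction (median -0.071). Shares of all genes called higher in these fits were 14.7%, 18.8% and 14.7%. Voom called 2 regulators higher. All-gene calls with an absolute log2 fold change above 1 were 261 at a pseudocount of 0.1, 76 at a mean FPKM of at least 5, 233 with TPM and 283 with voom. The cause of these shifts was not tested.

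Same-numbered libraries did not deviate together (correlations -0.02, 0.02 and -0.05), so no pairing by number was seen. With 3 libraries per group, a weaker shared effect could go unseen. A fit with the replicate block gave 2 higher and 4 lower of the 36, beside 13.7% higher and 11.5% lower of all genes.

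Signs turned only for genes that did not pass. With TPM, fold changes were -0.0049 for Ssbp1, -0.014 for Top1mt, -0.042 for Trmt5, -0.071 for Mto1 and -0.052 for Gtpbp3. With GC and length correction they were 0.036 for Polg, -0.036 for Top1mt, -0.047 for Trmt5 and -0.0079 for Mto1. Leaving out libraries gave -0.046 to 0.139 for Top1mt, -0.028 to 0.134 for Trmt5, -0.064 to 0.089 for Mto1, -0.025 to 0.062 for Gtpbp3 and -0.123 to 0.052 for Ptcd2. Over all alternatives of the 36 genes, 554 values kept direction and side of the threshold, 53 lost the call, 15 gained one and 21 turned sign. Partner ratios moved by less than 1 SD, with Lrpprc over Slirp between -1.27 and -0.56 on leaving out libraries. The smallest called change had a size of 0.18 on the log2 scale, and Slirp and Polg2, which were the lowest of the 36 in control cells, had the widest intervals.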
